A study of Arabidopsis thaliana with 32 samples.

Results

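The genes described here were those that the authors' deposited tables listed as changed by zaxinone in the roots of Col-0, d14 and kai2, and did not list in max2. There were 172 such genes, of 3443 genes listed in at least 1 of the 4 tables. A gene was listed when its adjusted p-value was under 0.05 and its absolute log2 fold change, zaxinone over mock, was at least 1. The genes were thus chosen by the zaxinone changes in these 3 genotypes, which are given as a description, with no test. Absence from the max2 table means only that a gene was not listed there: its max2 level and its max2 change were not analysed here, so that a change just under the threshold and no change at all cannot be told apart.

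The plants were 5-week-old Arabidopsis thaliana in hydroponic culture: Col-0, which is the wild type, and mutants in D14, KAI2 and MAX2, whose alleles the labels do not name. The zaxinone groups received 20 µM of the compound in 1% acetone through the medium and the mock groups 1% acetone alone, and roots were taken after 6 h. Each of the 8 groups had 4 libraries of polyadenylated RNA. The labels do not say whether the 4 came from separate plants or cultures, so p-values measure only the spread between these libraries. Depth was 42.8 to 101.9 M fragments per library over the 24 libraries of Col-0, d14 and kai2. Of the 3 mutated genes, the tables listed only KAI2, in kai2 alone, at 1.77 to 2.39 FPKM in the mock and 5.40 to 7.21 FPKM in the zaxinone libraries. With no value of D14, MAX2 or, in the other genotypes, KAI2, the genotype labels could not be checked. FPKM, a fragment count scaled by transcript length and by the total of the library, is the level scale used throughout.

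Zaxinone is an apocarotenoid, a product of carotenoid cleavage, and is known as a growth regulator in rice. D14 is the receptor of strigolactones, a class of apocarotenoid hormones, and KAI2 its paralog that perceives karrikins from smoke and a presumed endogenous ligand. Both hydrolases act through the F-box protein MAX2, the substrate-binding part of an SCF ubiquitin ligase that marks repressors of the SMXL family for degradation. In that textbook scheme, max2 lacks the outputs of both receptors.

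Of the 172 genes, 91 were higher under zaxinone in all 3 genotypes, 80 were lower in all 3, and 1, AT3G55513, was lower in Col-0 and kai2 and higher in d14. In Col-0, 7.33% of the genes tested were listed, 3.74% as higher and 3.59% as lower. In d14 9.45% were listed (5.94% higher, 3.51% lower), in kai2 7.44% (4.16% higher, 3.28% lower) and in max2 6.17% (3.57% higher, 2.6% lower). The number tested is the one the deposited p-values imply, and nothing is read from these shares, since the rule used the same contrasts. Over the 24 libraries the median of their mean levels was 2.597 FPKM, with 72 genes under 1 FPKM and 9 over 100 FPKM, and 154 were protein-coding. They were spread over the genome, with 45 on chromosome 1, 26 each on chromosomes 2 and 3, 31 on chromosome 4 and 44 on chromosome 5. In the 24 libraries of whole roots, fewer cells of a type and less RNA per cell cannot be told apart.

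**Figure D1:**
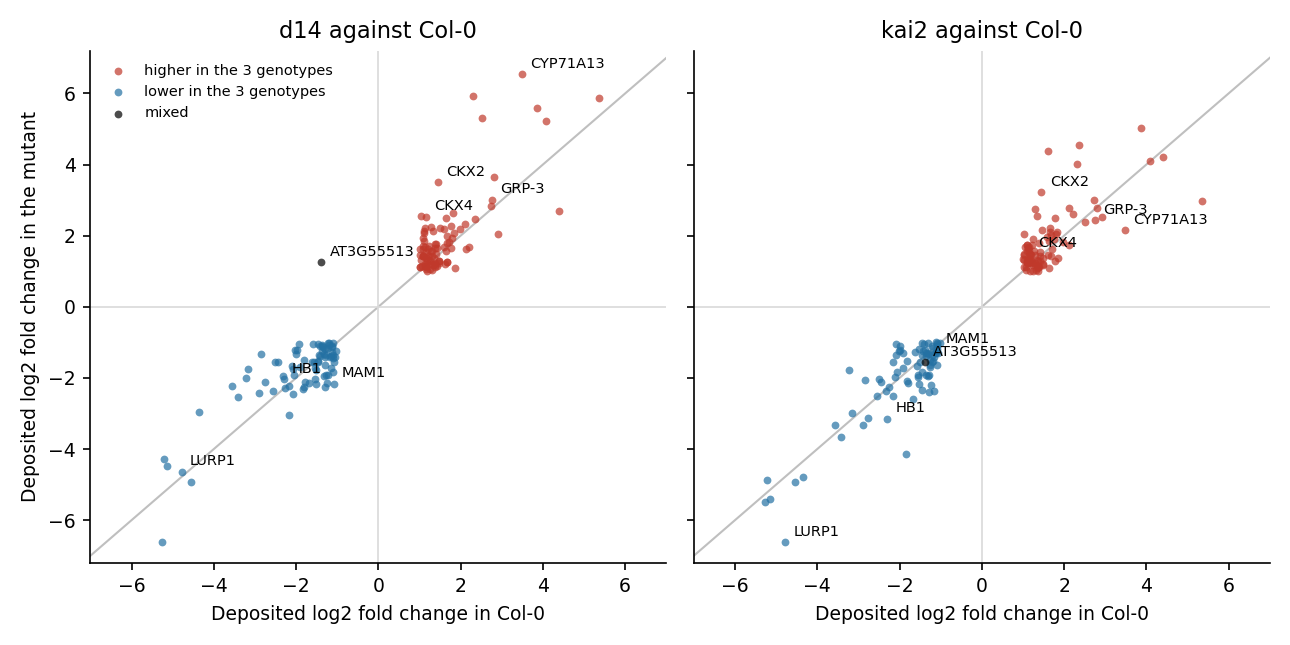
Deposited log2 fold changes of the 172 genes, zaxinone over mock, in Col-0 (x axis) against d14 (left) and kai2 (right), with 1 point per gene and the line of equal change. The empty band between -1 and 1 is set by the listing threshold, and AT3G55513 alone changes sign, in d14.

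The listed changes were smaller than those of genes listed in every genotype. Both sets were chosen by these same changes, so the comparison is a description with no test. In the authors' deposited tables the median size of the log2 fold changes of the 172 genes was 1.42 in Col-0, 1.62 in d14 and 1.56 in kai2. For the 827 genes of all 4 tables it was 1.87, 2.23 and 1.97, and 1.74 in max2. Their median level was lower as well, 2.09 FPKM against 4.69 FPKM in Col-0, 2.46 against 5.69 in d14 and 2.79 against 5.73 in kai2. For 116 of the 172 genes, the smallest of the 3 absolute log2 fold changes was under 1.5, and for 27 it was at least 2. With the few genes at 0 in a whole group set to the bound that 3 counts per library allow, the medians of the 172 were 1.39, 1.57 and 1.54.

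The same count was made for the other genotypes. Of 999 genes listed in Col-0, d14 and kai2, 17.2% were not listed in max2. Of 973 listed in Col-0, d14 and max2, 15.0% were not listed in kai2, and of 862 listed in Col-0, kai2 and max2, 4.06% were not listed in d14. The 146 genes missing from kai2 alone had a median size of the log2 fold change of 1.48 in Col-0 and 1.86 in d14. The 35 missing from d14 alone had one of 1.55 in Col-0 and 1.51 in kai2. These are counts of the deposited lists, which share libraries, and carry no test.

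**Figure D2:**
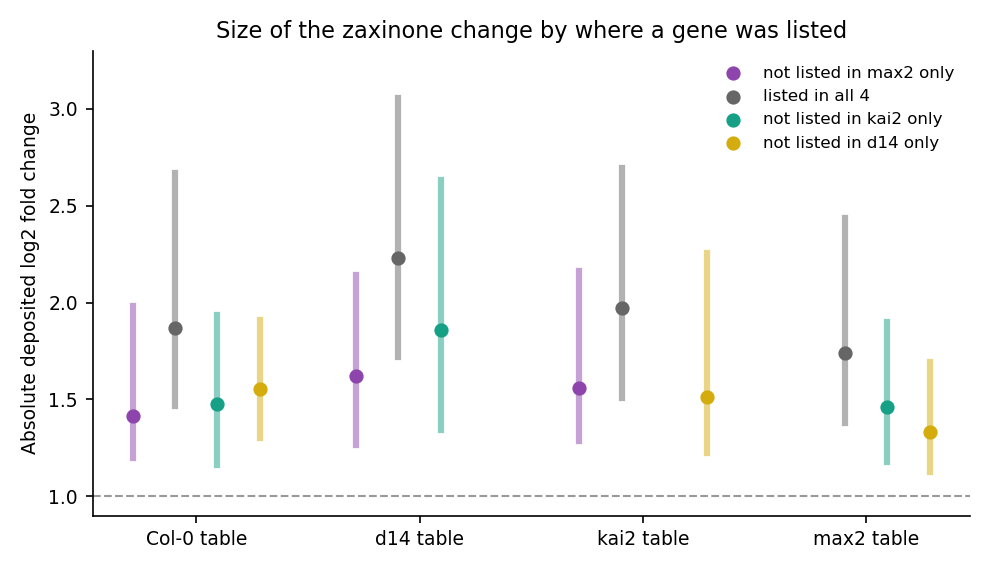
Absolute deposited log2 fold change by table for genes listed in all 4 tables and for genes missing from exactly 1. Points are medians and bars the quartiles over genes; the dashed line is the listing threshold. In Col-0 the genes missing from max2 have a median of 1.42, those missing from kai2 1.48, those missing from d14 1.55 and those listed in all 4 genotypes 1.87.

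Next to the threshold, the deposited log2 fold change of AT4G23010, annotated as a UDP-galactose transporter, was -1.001 in kai2, that of the glucosyltransferase gene UGT89B1 was 1.002 in Col-0 and that of TRM11 was 1.006 in kai2. Just outside the set, AT1G30700, BAG2 and AT5G40645 were listed in all 4 tables with deposited max2 log2 fold changes of 1.003, 1.004 and 1.006. Of the 827 genes of all 4 tables, 47 had an absolute max2 log2 fold change under 1.1.

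Of the 50-gene low oxygen list 5 genes (10%) were members, HB1, PCO1, PCO2, ACO1 and CML38, all 5 lower under zaxinone in Col-0, d14 and kai2. Plants sense oxygen through the plant cysteine oxidases, of which PCO1 and PCO2 are members: with oxygen present they mark group VII ERF transcription factors for degradation, and under low oxygen these factors switch on a core set of genes that includes PCO1 and PCO2 themselves. HB1 is a phytoglobin that scavenges nitric oxide, ACO1 the enzyme of the last step of ethylene synthesis and CML38 a calmodulin-like calcium sensor. PCO1 lies at chr5:4898641-4900734 and PCO2 at chr5:15974270-15976270, both on the plus strand of TAIR10.1. Their upstream sequences are shown because the pair moved together. The windows run over the 250 bases before the annotated start of each gene, chr5:4898391-4898640 and chr5:15974020-15974269, 5′ to 3′ on the gene's strand. Capitals mark TTGAC, the core of the W-box that WRKY factors bind, on either strand, and GTCAA is its reverse complement. TTGAC was in the windows of 55% of the lower members and 43.9% of all annotated genes, so it is not particular to this pair. Its part in the changes was not tested.
PCO1: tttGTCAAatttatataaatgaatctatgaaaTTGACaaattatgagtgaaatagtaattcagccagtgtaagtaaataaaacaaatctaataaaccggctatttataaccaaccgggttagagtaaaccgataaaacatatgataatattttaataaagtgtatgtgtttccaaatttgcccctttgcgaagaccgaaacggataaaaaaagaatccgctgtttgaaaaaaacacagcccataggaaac
PCO2: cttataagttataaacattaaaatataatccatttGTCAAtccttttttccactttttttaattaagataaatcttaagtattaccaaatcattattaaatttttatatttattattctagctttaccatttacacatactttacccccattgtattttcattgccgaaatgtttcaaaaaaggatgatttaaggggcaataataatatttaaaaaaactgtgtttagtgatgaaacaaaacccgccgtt

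HB1 measured 319.9, 309, 174 and 193 FPKM in the 4 Col-0 mock libraries and 55.4, 59.1, 32.6 and 55.1 FPKM in the Col-0 zaxinone libraries. The d14 libraries gave 872, 916, 325 and 553 FPKM in mock and 112, 174, 186 and 174 FPKM under zaxinone. In kai2 the mock libraries gave 989, 209, 131 and 137 FPKM and the zaxinone libraries 30.3, 50.5, 43.9 and 39.8 FPKM. The groups did not overlap in any of the 3 genotypes, the d14 libraries held the highest levels of both treatments but for kai2 mock replicate 1, and that library stood far above the other kai2 mock libraries. The log2 fold change of HB1 (edgeR, ± SE) was -2.30 ± 0.25 in Col-0, -2.04 ± 0.30 in d14 and -3.15 ± 0.61 in kai2.

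PCO1 measured 72.9, 68.8, 48.9 and 49.8 FPKM in Col-0 mock and 17.9, 19.2, 8.51 and 15.4 FPKM under zaxinone. Its d14 levels were 103, 110.4, 54.0 and 76.2 FPKM against 25.9, 42.6, 37.7 and 40.9 FPKM, and its kai2 levels 52.0, 20.3, 25.8 and 21.1 FPKM against 7.53, 16.5, 14.7 and 12.5 FPKM. No groups overlapped. The log2 fold change was -1.98 ± 0.25 in Col-0 and smaller in both mutants, at -1.22 ± 0.23 in d14 and -1.21 ± 0.32 in kai2; the difference between genotypes did not pass the test described further on.
PCO2 followed with 72.7, 67.5, 40.6 and 45.2 FPKM in Col-0 mock and 10.03, 13.5, 6.37 and 11.6 FPKM under zaxinone. In d14 it measured 149.8, 141, 51.6 and 85.8 FPKM against 22.6, 41.6, 39.4 and 42.2 FPKM. In kai2 it measured 83.8, 18.3, 19.1 and 9.31 FPKM against 4.59, 9.05, 8.46 and 8.04 FPKM, so that the lowest mock library lay just above the highest zaxinone library.

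ACO1 measured 71.0, 59.7, 33.7 and 29.9 FPKM in Col-0 mock and 10.05, 9.78, 5.25 and 8.06 FPKM under zaxinone. Its d14 libraries gave 137, 123, 49.4 and 84.0 FPKM against 16.3, 20.3, 21.8 and 17.2 FPKM, and its kai2 libraries 85.2, 27.2, 19.4 and 20.0 FPKM against 4.65, 7.48, 7.25 and 6.95 FPKM. Its log2 fold changes were -2.56 ± 0.30, -2.38 ± 0.27 and -2.52 ± 0.45 in Col-0, d14 and kai2. CML38 lay at 24.7 to 42.2 FPKM in Col-0 mock and 7.13 to 9.24 FPKM under zaxinone, at 22.7 to 65.3 FPKM and 10.4 to 19.4 FPKM in d14, and at 25.5 to 81.5 FPKM and 7.11 to 16.6 FPKM in kai2.

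The 5 genes varied together among the mock libraries. Col-0 mock replicate 1 was the highest Col-0 library for each of the 5, d14 mock replicate 3 the lowest d14 mock library for each, and kai2 mock replicate 1 the highest kai2 library for each. Without kai2 mock replicate 1 the kai2 log2 fold changes were -1.95 ± 0.21 for HB1, -1.75 ± 0.20 for ACO1, -1.37 ± 0.26 for CML38, -1.04 ± 0.28 for PCO2 and -0.80 ± 0.24 for PCO1, which put PCO1 under the listing threshold. In that library 2 genes of the shoot and photosynthesis list that the kai2 table held, LHCB1.2 and RBCS2B, summed to 1.94 FPKM, against 0.0623 to 0.264 FPKM in the other kai2 mock libraries. The part of either in the kai2 result was not tested.

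**Figure D3:**
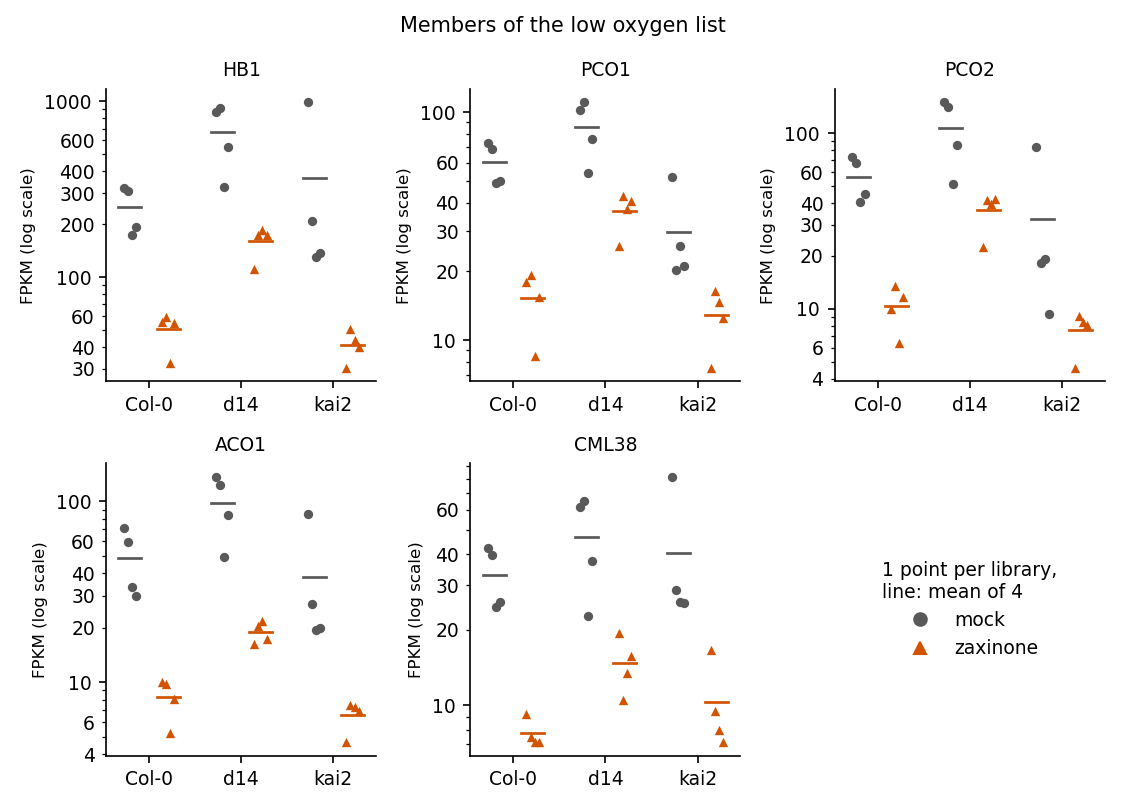
FPKM of the 5 low oxygen genes by library on log axes, with 1 point per library and a line at the mean of 4. Every zaxinone library lies below every mock library of the same genotype; kai2 mock replicate 1, at 989 FPKM for HB1, stands above the other kai2 libraries in each panel.

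Of the other genes of the 50-gene low oxygen list, 4 were listed in all 4 genotypes. The list as a whole had 22 genes lower and 2 higher in Col-0, 19 lower and 2 higher in d14, and 8 lower and 2 higher in kai2. In max2 it had 2 lower and 15 higher. ADH1 and PDC1, the fermentation enzymes most used as markers of low oxygen, were lower in Col-0 and d14 in the authors' deposited tables, with log2 fold changes of -2.98 and -2.11 for ADH1 and -3.02 and -1.88 for PDC1, and were not listed in kai2 or max2.

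Cytokinin genes among the members included enzymes of its release and its breakdown. CKX2 and CKX4 encode cytokinin oxidases, which degrade the hormone, and LOG5 and LOG7 encode enzymes that release active cytokinin from its nucleotide; all 4 were higher under zaxinone in the 3 genotypes. CKX2 and CKX4 were on the 19-gene cytokinin list, on which 1 gene was listed in every genotype. They were 2 of its 3 genes listed in Col-0, d14 and kai2, beside the background of 17.2%. As a whole that list had 4 genes higher and 2 lower in Col-0, and 6 higher and 3 lower in d14. It had 5 higher and 1 lower in kai2, and 0 higher and 3 lower in max2. The LOG genes were named for their shared family.
CKX4 measured 16.6, 13.01, 10.3 and 10.7 FPKM in Col-0 mock and 36.0, 34.7, 19.2 and 23.4 FPKM under zaxinone. The d14 libraries gave 7.33, 7.02, 7.56 and 7.60 FPKM against 46.0, 39.3, 38.0 and 47.6 FPKM, and in kai2 20.9, 14.9, 9.94 and 10.6 FPKM against 42.0, 37.4, 42.4 and 36.4 FPKM. The d14 mock libraries were the lowest of all and the d14 zaxinone libraries among the highest. The log2 fold change was 1.16 ± 0.23 in Col-0, 2.54 ± 0.14 in d14 and 1.495 ± 0.22 in kai2.

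LOG7 measured 9.35, 9.47, 10.9 and 9.65 FPKM in Col-0 mock and 23.2, 23.8, 21.2 and 16.9 FPKM under zaxinone. Its d14 levels were 5.40, 6.59, 5.99 and 7.63 FPKM against 30.3, 28.0, 25.8 and 27.2 FPKM, and its kai2 levels 8.33, 6.601, 6.36 and 8.42 FPKM against 27.9, 23.6, 26.3 and 20.6 FPKM. As for CKX4, d14 had the lowest mock and the highest zaxinone mean. CKX2 and LOG5 stayed under 1.3 FPKM in every library: CKX2 lay at 0.00908 to 0.168 FPKM over the 12 mock libraries and 0.168 to 0.827 FPKM over the 12 zaxinone libraries, and LOG5 at 0.0742 to 0.344 FPKM and 0.480 to 1.23 FPKM. CKX2 overlaps AT2G00640 on the other strand by 666 bases, so its counts are uncertain.
The CKX4 upstream window, chr4:14565933-14566182 on the plus strand, is shown because the CKX4 change differed between genotypes in the test described further on; TTGAC is in capitals on either strand.
CKX4: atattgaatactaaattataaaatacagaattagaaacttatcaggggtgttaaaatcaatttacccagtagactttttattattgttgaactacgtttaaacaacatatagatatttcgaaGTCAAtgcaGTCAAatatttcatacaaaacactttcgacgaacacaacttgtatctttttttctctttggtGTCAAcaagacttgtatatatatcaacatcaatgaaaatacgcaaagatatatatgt

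The salicylic acid and immunity list had 3 of its 24 genes among the members, CYP71A13 and PAD3 higher and LURP1 lower, and the glucosinolate list had MYB122 higher and MAM1 lower. Among genes listed in Col-0, d14 and kai2, members were 3 of 7 on the immunity list and 2 of 3 on the glucosinolate list. The background was 17.2%. In the deposited tables the immunity list had 4 genes higher and 5 lower in Col-0, 6 and 4 in d14, 5 and 3 in kai2, and 2 and 2 in max2. CYP71A13 and PAD3 encode cytochromes P450 of camalexin synthesis, the indole phytoalexin of Arabidopsis, and MYB122 a transcription factor of indole glucosinolate synthesis; all 3 were higher. MAM1, which extends the side chain of methionine on the way to aliphatic glucosinolates, was lower. IGMT5, an indole glucosinolate methyltransferase, and NSP5, a nitrile specifier protein that directs glucosinolate breakdown, were higher too; both were named after their values were seen. PAD3 measured 4.08, 2.42, 2.94 and 2.91 FPKM in Col-0 mock and 12.8, 8.17, 9.66 and 9.04 FPKM under zaxinone. In d14 it measured 5.08, 4.89, 4.26 and 4.69 FPKM against 13.7, 8.21, 12.6 and 10.9 FPKM, and in kai2 6.62, 2.899, 3.39 and 3.16 FPKM against 9.90, 10.2, 12.1 and 10.6 FPKM. No groups overlapped, and the log2 fold changes were 1.68 ± 0.21, 1.27 ± 0.17 and 1.41 ± 0.25 in Col-0, d14 and kai2.

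CYP71A13 was near 0 without zaxinone. It held 42 counts in the 4 Col-0 mock libraries, 3 in the d14 mock and 46 in the kai2 mock libraries, against 514, 228 and 236 counts under zaxinone. In FPKM the Col-0 zaxinone libraries gave 1.37, 0.516, 1.24 and 0.639, those of d14 0.745, 0.529, 0.763 and 0.756, and those of kai2 0.788, 0.914, 0.484 and 0.508. The zaxinone levels of the 3 genotypes overlapped while the mock levels differed. Reads of CYP71A13 may be shared with its near-identical neighbour CYP71A12, and its locus overlaps AT2G30766 on the other strand by 572 bases, so its counts are uncertain. Its upstream window, chr2:13111989-13112238 on the minus strand, is shown because its change too differed between genotypes; TTGAC is in capitals on either strand.
CYP71A13: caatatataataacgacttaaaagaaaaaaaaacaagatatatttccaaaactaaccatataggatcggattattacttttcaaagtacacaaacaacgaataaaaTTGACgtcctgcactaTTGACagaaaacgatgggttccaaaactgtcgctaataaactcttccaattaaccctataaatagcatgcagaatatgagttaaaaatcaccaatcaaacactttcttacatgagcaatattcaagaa

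MYB122 lay at 2.61 to 4.63 FPKM in Col-0 mock and 5.95 to 11.8 FPKM under zaxinone, at 2.46 to 3.302 FPKM and 6.57 to 9.69 FPKM in d14, and at 2.55 to 3.99 FPKM and 7.66 to 11.4 FPKM in kai2. Its log2 fold change was 1.16 ± 0.24, 1.36 ± 0.18 and 1.58 ± 0.20. IGMT5 lay at 22.8 to 44.2 FPKM over the mock and 40.7 to 115 FPKM over the zaxinone libraries, and NSP5 at 16.2 to 35.9 FPKM and 32.2 to 108 FPKM. The IGMT5 groups overlapped in Col-0 and were apart in d14 and kai2. MAM1 measured 146, 171, 114 and 156 FPKM in Col-0 mock and 85.02, 83.9, 54.6 and 52.8 FPKM under zaxinone. The d14 libraries gave 137, 168, 149 and 100.5 FPKM against 30.3, 33.5, 30.0 and 30.3 FPKM, and in kai2 122, 89.2, 85.2 and 106 FPKM against 48.2, 37.3, 49.4 and 42.4 FPKM. Col-0 and d14 began at like levels and the d14 zaxinone libraries ended lowest.
The 23-gene glucosinolate list had 1 gene listed in every genotype and, besides MYB122 and MAM1, no other gene missing from max2 alone. In the deposited tables it had 7 genes lower and 2 higher in Col-0, 10 lower and 2 higher in d14, 1 lower and 3 higher in kai2, and 2 lower and 1 higher in max2.

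Of the 34-gene abscisic acid response list, the members were ABI1 and KIN2, both higher. These were 2 of its 20 genes listed in Col-0, d14 and kai2, a share below the background of 17.2%. CBF4, on no list, was higher too. ABI1 is a protein phosphatase 2C that holds back abscisic acid signalling and is itself induced by it, KIN2 is a small protein induced by cold and abscisic acid, and CBF4 is a DREB-type transcription factor linked to drought. ABI1 measured 31.98, 35.9, 34.9 and 35.3 FPKM in Col-0 mock and 81.6, 77.3, 82.2 and 78.7 FPKM under zaxinone. Its d14 levels were 25.1, 27.4, 29.7 and 27.9 FPKM against 72.1, 59.0, 82.1 and 83.3 FPKM, and its kai2 levels 32.4, 32.5, 32.6 and 40.0 FPKM against 117, 92.3, 85.7 and 81.7 FPKM. No groups overlapped, and the log2 fold changes were 1.205 ± 0.14, 1.43 ± 0.15 and 1.46 ± 0.15.

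KIN2 measured 37.6, 11.2, 11.95 and 22.1 FPKM in Col-0 mock and 74.2, 102, 54.2 and 50.8 FPKM under zaxinone. In d14 it measured 11.7, 8.98, 9.95 and 15.5 FPKM against 71.8, 64.5, 43.4 and 45.0 FPKM, and in kai2 18.995, 17.3, 14.6 and 12.7 FPKM against 66.0, 43.6, 79.2 and 48.2 FPKM. The zaxinone ranges of the 3 genotypes overlapped widely. CBF4 was close to undetected without zaxinone, with 2, 1 and 2 counts over the 4 mock libraries of Col-0, d14 and kai2 and 39, 38 and 40 counts over the zaxinone libraries, which was at most 0.299 FPKM in any library.
On the abscisic acid response list 18 genes were listed in all 4 genotypes, and the list had 17 genes higher and 4 lower in max2. MAPKKK17 and EDL3, both known as abscisic acid inducible and named after their values were seen, had deposited log2 fold changes of 1.09, 1.62 and 1.29 and of 1.09, 1.44 and 1.27 in Col-0, d14 and kai2.

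The upstream windows of KIN2 (chr5:5211469-5211718, plus strand) and CBF4 (chr5:21117861-21118110, minus strand) show the ACGTG motif, the core of the abscisic acid responsive element. The windows of ABI1 and EDL3 held no ACGTG, and that of MAPKKK17 held it. ACGTG is in capitals on either strand, as CACGT where it lies on the other; CACGTG holds it on both.
KIN2: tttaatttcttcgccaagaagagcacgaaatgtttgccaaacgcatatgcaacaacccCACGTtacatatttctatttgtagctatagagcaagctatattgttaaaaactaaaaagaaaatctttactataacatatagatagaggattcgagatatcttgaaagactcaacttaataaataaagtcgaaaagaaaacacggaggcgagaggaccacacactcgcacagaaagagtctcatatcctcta
CBF4: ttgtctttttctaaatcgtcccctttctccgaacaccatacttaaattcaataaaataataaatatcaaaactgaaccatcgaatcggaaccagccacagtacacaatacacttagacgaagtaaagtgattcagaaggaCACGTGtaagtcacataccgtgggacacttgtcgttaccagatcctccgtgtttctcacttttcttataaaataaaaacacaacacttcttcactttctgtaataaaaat
ACGTG, searched on both strands, was in the window of 35.2% of the 91 genes that were higher, 32.5% of the 80 that were lower and 20.8% of all 37897 annotated genes with a window. Among genes of all 4 tables it was in 34.6% of those higher in Col-0 and 20.8% of those lower. Its palindrome CACGTG, which is counted within ACGTG, was in 10 of the 91 higher genes, 3.75% of the lower genes and 5.39% of all genes. TTGAC was in 50.5% of the higher genes, 44 of the 80 lower genes and 43.9% of all genes. Genes of all 4 tables held it at like shares, 51.7% of those higher in Col-0 and 57% of those lower. These are descriptions of letters in a window, with no test.

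APR3 was the 1 member of the 15-gene sulfur list, and GSTU17 and DTX4 were the members of the 51-gene detoxification list. All 3 were higher. Among genes listed in Col-0, d14 and kai2, members were 1 of 3 on the sulfur list and 2 of 24 on the detoxification list. The background was 17.2%. APR3 is an enzyme that reduces activated sulfate. It measured 27.4, 24.2, 18.7 and 23.8 FPKM in Col-0 mock and 89.7, 68.2, 66.2 and 76.7 FPKM under zaxinone. The d14 libraries gave 26.8, 28.1, 28.5 and 32.8 FPKM against 61.9, 81.2, 67.2 and 65.8 FPKM, and in kai2 13.3, 12.5, 20.2 and 15.0 FPKM against 59.1, 51.9, 76.5 and 56.7 FPKM. The kai2 mock mean was the lowest, and the zaxinone levels of the genotypes overlapped. LSU3, a gene of the low sulfur response that was named after its values were seen, had deposited log2 fold changes of 1.253, 1.29 and 1.90 in Col-0, d14 and kai2, with overlapping groups in kai2. The sulfur list held 6 genes higher in kai2, 2 each in Col-0 and d14 and 1 in max2, and 1 gene lower in each genotype.

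GSTU17, a tau-class glutathione transferase, had groups apart in d14 and overlapping in Col-0 and kai2. Its Col-0 zaxinone libraries gave 1.04, 2.18, 0.364 and 0.387 FPKM, of which the lower 2 lay within the mock range of 0.264 to 0.3997 FPKM. In d14 the zaxinone libraries gave 3.67, 1.88, 1.299 and 1.49 FPKM against 0.264 to 0.432 FPKM in mock, and in kai2 1.33, 2.09, 2.42 and 0.872 FPKM against 0.124 to 1.13 FPKM, where the groups overlapped. GSTU17 also overlaps the neighbouring AT1G10360 on the same strand by 71 bases, so its counts are uncertain. Without Col-0 zaxinone replicate 2 its Col-0 log2 fold change was 0.91 in place of 1.64, under the listing threshold, and without kai2 mock replicate 4 the kai2 change was 2.75 in place of 1.86. On the detoxification list 22 genes were listed in all 4 genotypes and 30 were higher in max2.

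Among immune and receptor genes several were at or near 0 under zaxinone. LURP1, induced late in resistance to a downy mildew, measured 0.647, 1.91, 1.35 and 0.802 FPKM in Col-0 mock and 0.0241, 0.0157, 0.0704 and 0.0629 FPKM under zaxinone. In d14 it measured 1.38, 1.57, 0.943 and 1.41 FPKM against 0.0421, 0.0928, 0.0659 and 0.00955 FPKM, and in kai2 0.683, 1.14, 0.848 and 1.197 FPKM against 0.0195, 0, 0.0209 and 0 FPKM. All mock libraries lay above all zaxinone libraries, with total counts of 849, 782 and 426 against 34, 26 and 5.
AT3G46350 and AT3G46355 are neighbouring leucine-rich repeat receptor kinase genes, 61 bases apart on chromosome 3. AT3G46350 held 25, 18 and 20 counts over the mock libraries of Col-0, d14 and kai2 and 0 under zaxinone in all 12 libraries, which was at least 2.25-fold lower in Col-0, 1.16-fold in d14 and 1.76-fold in kai2 against a floor of 3 counts per library. AT3G46355 held 24, 34 and 28 counts in mock and 0, 1 and 0 under zaxinone, with overlapping groups in kai2.

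AT5G38950, a cupin family gene, was at 0 in all zaxinone libraries as well, at least 2.31-fold lower in Col-0, 5.97-fold in d14 and 2.72-fold in kai2; its d14 mock libraries held 0.529 to 1.68 FPKM. RABG1, a RAB GTPase homolog, had 16, 27 and 33 mock counts and 0, 0 and 1 zaxinone counts. In the opposite direction AT4G19970, a sugar transferase family gene, was at 0 in the d14 mock libraries and at 0.0790 to 0.218 FPKM in d14 zaxinone, at least 3.68-fold higher. AT2G38905, a low temperature and salt responsive family gene, was at 0 in d14 and kai2 mock. Its mean was at least 2.94-fold and 1.99-fold higher under zaxinone, although its kai2 groups overlapped. These floors cover counting error only. In all, 6 of the 172 genes had a group at 0 counts.

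At the other end of the scale, SAG21, a stress-induced protein of the late embryogenesis abundant family, was the most abundant member. It measured 1289, 1657, 1266 and 1209.7 FPKM in Col-0 mock and 649, 518, 462 and 639.6 FPKM under zaxinone. The d14 levels were 2175, 2301, 2017 and 2473 FPKM against 1170.5, 893, 803 and 647 FPKM, and in kai2 1986, 1574, 1637 and 1823 FPKM against 509.9, 582, 524 and 531 FPKM. No groups overlapped, and the d14 mock libraries were the highest. It shares 180 bases of its strand with AT4G04125, so its counts are uncertain. AT5G26130, a gene of the family that holds the pathogenesis-related protein PR1, lay at 333 to 1373 FPKM in Col-0 mock and 47.3 to 173 FPKM under zaxinone, at 613 to 929 FPKM and 100.2 to 474 FPKM in d14, and at 1146 to 1545 FPKM and 125 to 218 FPKM in kai2. Without d14 zaxinone replicate 4, the library at 474 FPKM, its d14 log2 fold change was -2.44 in place of -1.76.

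The pectin methylesterase gene PMEPCRA, which acts on the cell wall, averaged 835 ± 105 FPKM (SD, n = 4) in Col-0 mock and 239 ± 46.0 FPKM under zaxinone, 1069.5 ± 129 and 381 ± 56.6 FPKM in d14, and 654 ± 147 and 227 ± 41.1 FPKM in kai2. The lipid-transfer family gene AT3G53980 averaged 126 ± 37.6 FPKM (SD, n = 4) in Col-0 mock and 378 ± 54.7 FPKM under zaxinone, 236 ± 42.4 and 762 ± 69.1 FPKM in d14, and 121 ± 17.37 and 470.0 ± 64.5 FPKM in kai2.
GRP-3, a glycine-rich protein of the cell wall, measured 7.69, 4.13, 6.14 and 6.03 FPKM in Col-0 mock and 39.3, 41.3, 36.3 and 46.0 FPKM under zaxinone. Its levels in d14 were 4.52, 3.82, 3.53 and 4.75 FPKM against 48.4, 33.0, 23.8 and 28.7 FPKM, and in kai2 12.1, 7.51, 7.69 and 9.02 FPKM against 52.4, 37.8, 57.9 and 47.5 FPKM. No groups overlapped, and the changes were 2.76 ± 0.21, 3.01 ± 0.23 and 2.43 ± 0.20 on the log2 scale.

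MRN1 encodes marneral synthase, which makes a root triterpene. It lay at 0.0562 to 0.517 FPKM over the 12 mock libraries and at 0.205, 0.420, 1.18 and 0.347 FPKM in Col-0, 0.746, 1.35, 0.682 and 0.687 FPKM in d14 and 5.565, 1.07, 0.289 and 0.335 FPKM in kai2 under zaxinone. Single libraries set its change: without Col-0 zaxinone replicate 3 the log2 fold change was 0.88 in place of 1.61, without d14 mock replicate 4 3.42 in place of 2.16, and without kai2 zaxinone replicate 1 2.68 in place of 4.36. AT5G00580, an annotated transcribed region 6212 bases upstream of MRN1 on the same strand, was also higher, with log2 fold changes of 1.02 ± 0.30, 2.53 ± 0.29 and 2.05 ± 0.50.

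**Figure D4:**
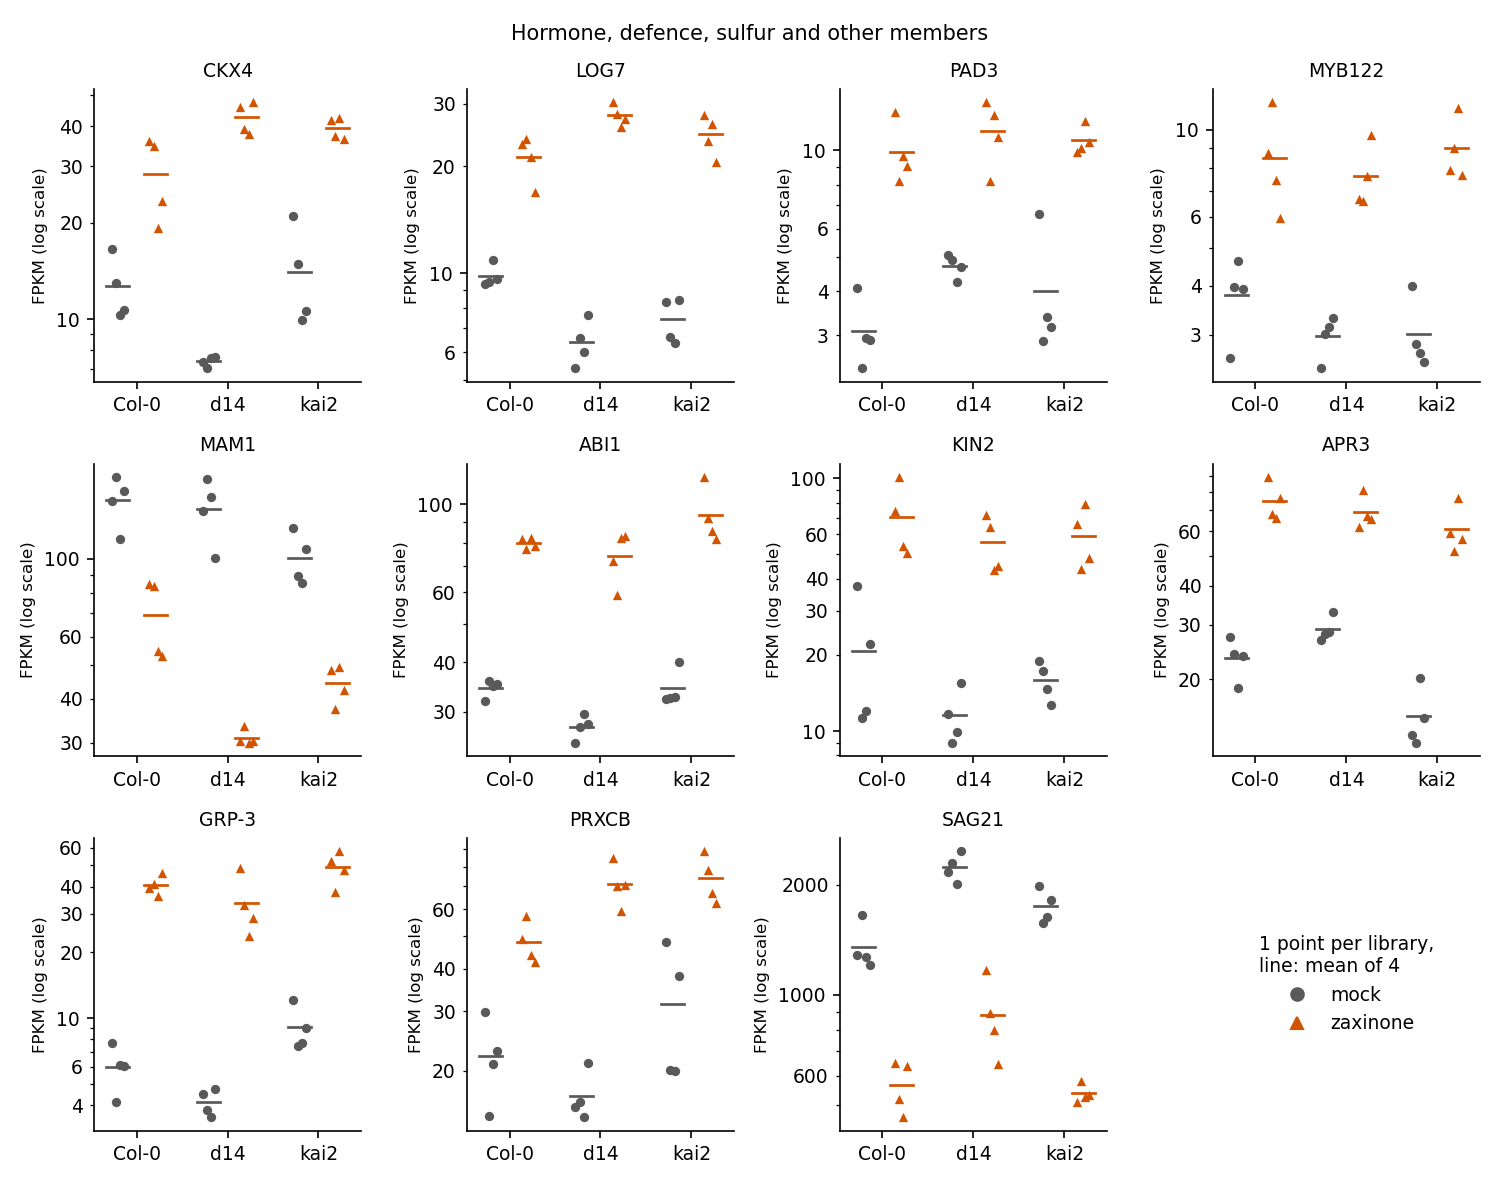
FPKM by library on log axes for 11 of the named genes, with 1 point per library and a line at the mean of 4. For CKX4 and LOG7 the d14 mock mean is the lowest of the 3 genotypes and the d14 zaxinone mean the highest, and for MAM1 the d14 zaxinone libraries, at 30.0 to 33.5 FPKM, lie below all others.

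Whether the zaxinone change differed between the 3 genotypes that list these genes was tested as the difference of the log2 fold changes (edgeR, quasi-likelihood test, Benjamini-Hochberg adjustment over all genes listed in both tables). This comparison was not used to choose the genes, although listing in both tables bounds it. Between d14 and Col-0, 8 of the 172 genes differed, 7 with a more positive and 1 with a more negative change in d14. Among all genes tested 7.98% differed, 6.98% with a more positive and 1.01% with a more negative change in d14, so the members' count was below the background. With TMM factors the split was 4 and 2, beside 4.88% and 1.4% of all genes tested. The 8 were CKX4 (1.37 ± 0.27, adjusted p = 0.00854), LOG7 (1.01 ± 0.21, adjusted p = 0.00877), AT3G55513 (2.63 ± 0.57, adjusted p = 0.0106), MAM1 (-1.07 ± 0.27, adjusted p = 0.0218), AT5G00580 (1.505 ± 0.40, adjusted p = 0.0322), the peroxidase gene PRXCB (0.96 ± 0.27, adjusted p = 0.036), AT4G19970 (4.35, adjusted p = 0.0436) and AT5G35110, a gene of unknown function (1.085 ± 0.32, adjusted p = 0.0449). The AT4G19970 value rests on a mock group at 0 and depends on the prior count. CKX4, LOG7 and AT3G55513 held without any 1 library, MAM1 did not without d14 mock replicate 2 or Col-0 zaxinone replicate 2, and each of the other 4 lost the call when any of 7 to 13 libraries was left out singly.

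Between d14 and kai2, 5 of the 172 differed, 4 with a more positive and 1 with a more negative change in d14, with a background of 2.64% (2.42% and 0.227%). These were CYP71A13 (4.13 ± 0.83, adjusted p = 0.0192, edgeR), AT3G55513 (2.80 ± 0.58, adjusted p = 0.0195), MAM1 (-0.97 ± 0.22, adjusted p = 0.021), CKX4 (1.04 ± 0.26, adjusted p = 0.0352) and the aspartyl protease gene AT1G66180 (0.80 ± 0.21, adjusted p = 0.0434). The CYP71A13 value rests on 3 counts in the d14 mock libraries. CYP71A13 and AT3G55513 held without any 1 library, MAM1 was lost without d14 mock replicate 2, and CKX4 and AT1G66180 were lost when any of 10 and of 13 libraries was left out singly. Both d14 comparisons used the same d14 libraries.

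Between kai2 and Col-0 no member differed by edgeR, where the background was 0%, with 14 of 172 (8.14%) at an unadjusted p under 0.05, beside 97 of 1138 genes (8.52%). DESeq2 called 2, LOG5 with a log2 difference of 1.45 and AT4G19980 with one of -0.99, beside 1.58% of all genes tested, and limma-voom called 0. The median difference over the 172 genes was 0.03 for kai2 against Col-0 and 0.11 for d14 against Col-0, beside 0.05 and 0.22 over all genes tested.
By size in the deposited tables, the change was larger in d14 than in Col-0 for 101 of the 172 genes (58.7%), beside 574 of the 827 genes listed everywhere (69.4%), and larger in kai2 than in Col-0 for 102 (59.3%) beside 431 (52.1%).

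AT3G55513 was the only member whose direction differed. It measured 3.23, 3.90, 4.24 and 6.14 FPKM in Col-0 mock and 1.44, 1.46, 1.58 and 2.22 FPKM under zaxinone, and 4.23, 3.57, 3.25 and 5.36 FPKM against 1.48, 0.825, 1.46 and 1.81 FPKM in kai2. The d14 levels were 1.42, 2.06, 0.859 and 1.78 FPKM in mock and 6.74, 4.21, 1.92 and 1.53 FPKM under zaxinone. The d14 groups overlapped, with replicates 1 and 2 high under zaxinone. Its locus, chr3:20584872-20585420 on the minus strand of TAIR10.1, overlaps AT3G08495 on the other strand by 536 bases, and whether reads were counted by strand is not given in the sources used here, so its counts are uncertain.
In d14 the 3 listed genes of the 13-gene shoot and photosynthesis list, RBCS2B, PSBO1 and CAB4, did not move together. PSBO1 lay at 2.56 to 4.18 FPKM in mock and 7.31 to 12.3 FPKM under zaxinone, and CAB4 at 9.74 to 13.1 FPKM and 23.4 to 38.8 FPKM. RBCS2B lay at 0.0435 to 0.34 FPKM in mock and 0 to 0.0197 FPKM under zaxinone. None of that list was in the Col-0 table. Their part in the d14 values was not tested.

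**Figure D5:**
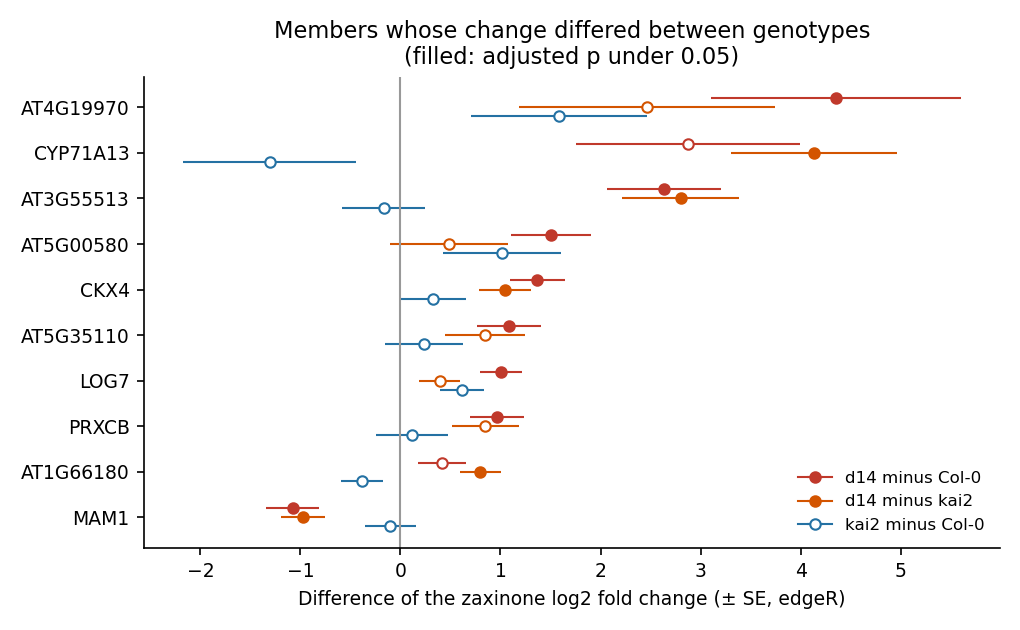
Difference of the zaxinone log2 fold change between genotypes (± SE, edgeR) for the 10 genes with a called difference, for d14 minus Col-0, d14 minus kai2 and kai2 minus Col-0. Filled points have an adjusted p under 0.05; no kai2 minus Col-0 point is filled, and MAM1 alone has negative d14 differences.

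The mock libraries were compared between genotypes on the scale of library totals, over the same genes. Genotype and any batch of growth or sequencing shared by the libraries of a genotype cannot be told apart in this comparison. Mock depth also differed, at 67.6 to 91.4 M fragments in Col-0, 52.3 to 73.9 M in d14 and 43.4 to 56.4 M in kai2. In d14 mock against Col-0 mock, 44 of the 172 genes differed (edgeR), 31 higher and 13 lower, with a background of 29.8% (16.4% and 13.4%). In kai2 mock against Col-0 mock 23 differed, 20 higher and 3 lower, with a background of 10.8% (8.79% and 2.02%), and in kai2 mock against d14 mock 42 differed, 28 higher and 14 lower, with a background of 23.3% (14.6% and 8.69%). With TMM factors 23 members were higher and 15 lower in d14 than in Col-0 mock, beside 12.2% and 16.9% of all genes tested, where the balance over all genes turned. The TMM splits were 20 and 10 for kai2 against Col-0, beside 7.47% and 4.48%, and 27 and 21 for kai2 against d14, beside 13.9% and 11.5%. The same mock libraries enter the zaxinone change, so the mock comparison is not independent of the listing. Of the 80 genes listed as lower under zaxinone, 26 (32.5%) were higher in d14 mock than in Col-0 mock, and of all 574 genes listed as lower in both genotypes 189 (32.9%) were.

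Among the named genes, HB1 was higher in d14 mock than in Col-0 mock by 1.42 ± 0.31 on the log2 scale (edgeR adjusted p = 0.00718), ACO1 by 1.02 ± 0.33 (adjusted p = 0.0417) and PCO2 by 0.92 ± 0.31 (adjusted p = 0.0434). PCO1 was lower in kai2 mock than in Col-0 mock at -1.01 ± 0.28 (adjusted p = 0.0403). Of 15 alternatives, the call was lost in 1 for HB1 (adjusted p up to 0.0629), 7 for ACO1 (up to 0.114), 9 for PCO2 (up to 0.199) and 6 for PCO1 (up to 0.107). In d14 mock against Col-0 mock, SAG21 was higher by 0.73 ± 0.13 (edgeR adjusted p = 0.00259) and PAD3 by 0.61 ± 0.16 (adjusted p = 0.0192, lost in 3 of 15 alternatives, up to 0.067). In the same comparison CKX4 was lower at -0.78 ± 0.15 (edgeR adjusted p = 0.00434) and LOG7 at -0.62 ± 0.14 (adjusted p = 0.00718). The d14 mock libraries enter both these differences and the d14 zaxinone changes of CKX4 and LOG7 given above.

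Among the genes with the widest mock differences, ARD3 and AT2G29220 were listed as lower under zaxinone. The mock and zaxinone groups of ARD3 overlapped in Col-0 and kai2, and in kai2 it held 32 mock and 2 zaxinone counts. ARD3, an acireductone dioxygenase of the methionine salvage cycle that recycles the by-product of ethylene synthesis, measured 1.13, 0.923, 0.283 and 0.330 FPKM in Col-0 mock, 4.21, 4.80, 1.76 and 4.46 FPKM in d14 mock and 0.285, 0, 0.0670 and 0.206 FPKM in kai2 mock. It was higher in d14 than in Col-0 by 2.49 ± 0.45 (edgeR adjusted p = 0.00281) and in kai2 lower than in d14 at -4.74 ± 0.60 (adjusted p = 0.000521). AT2G29220, a lectin receptor kinase gene, measured 0.0519 to 0.209 FPKM in Col-0 mock, 0.411 to 0.965 FPKM in d14 mock and 0.245 to 2.59 FPKM in kai2 mock. It was higher in both mutants than in Col-0, by 2.56 ± 0.42 in d14 (edgeR adjusted p = 0.00198) and 3.42 ± 0.71 in kai2 (adjusted p = 0.0157). APR3 was lower in kai2 mock than in Col-0 mock at -0.63 ± 0.18 (edgeR adjusted p = 0.0428, lost in 7 of 15 alternatives, up to 0.116) and than in d14 mock at -0.93 ± 0.15 (adjusted p = 0.00205).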

How the data were processed

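Polyadenylated RNA was sequenced, per the labels' protocols. The submitters' processing notes name HISAT2 and StringTie; genome build and counting tool are not stated in the sources at hand. Per the file headers, the deposited tables hold raw read counts, normalized counts (a signal on the count scale), FPKM values, log2 fold changes, p-values and adjusted p-values, 1 table per genotype, restricted to genes past the listing threshold. The normalized column of Col-0 zaxinone replicate 2 held 1 constant, and its factor was rebuilt from the authors' group mean.

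Library totals were recovered from counts and FPKM. The implied transcript lengths equalled those of the RefSeq annotation of TAIR10.1 within 0.1% for 100% of listed genes, so its names, coordinates and sequences were used. Sizes and differences came from edgeR 4.0.16 (R 4.3.3) on the deposited counts, tested on simulated data, with the authors' factors within a genotype and library totals between genotypes. DESeq2 1.42.0, limma-voom 3.58.1, TMM, filters, the replicate block and leaving out libraries were alternatives. Genes not listed in both tables could not be tested. The 22 gene lists, the shoot marker list and the genes named (the strongest 12 in each direction, list members, families, the most abundant, called differences and genes next to the threshold) were chosen with earlier results of these data known. The lists with no member were those of abscisic acid metabolism, strigolactone and karrikin genes, suberin, heat, touch, nitrate, phosphate, iron, auxin, jasmonate, gibberellin, cell wall, clock, sugar and shoot genes. Counting intervals and floors cover counting error only.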

Additional observations from a re-analysis of the deposited data

Results flagged for a closer look

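In 25 of 203 groups of 4 libraries, over the 36 genes described by library, 1 library lay apart from the other 3 by Dixon's criterion. Independent, normally spread values meet that criterion in about 1 group in 20. The genes here share libraries, and the flagged groups of CBF4, AT3G46355, RABG1 and AT2G38905 had the other 3 libraries at 0. The number of flags is thus not comparable with that rate. Kai2 mock replicate 1 was high for HB1 (989 FPKM), PCO2 (83.8 FPKM), ACO1 (85.2 FPKM), CML38 (81.5 FPKM), PAD3 (6.62 FPKM), AT5G38950 (1.07 FPKM) and CBF4 (0.0360 FPKM, 2 counts). D14 zaxinone replicate 1 was low for HB1 (112 FPKM) and PCO2 (22.6 FPKM) and held the single count of AT3G46355 (0.0179 FPKM). Kai2 zaxinone replicate 1 was high for MRN1 (5.565 FPKM) and NSP5 (98.4 FPKM).

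The d14 zaxinone replicate 2 library was low for CYP71A13 (0.529 FPKM) and high for MAM1 (33.5 FPKM) and MRN1 (1.35 FPKM). LOG5 was low in d14 mock replicate 3 (0.109 FPKM) and high in d14 zaxinone replicate 3 (1.202 FPKM), and CBF4 had its only d14 mock count in replicate 3 (0.0154 FPKM). MRN1 was high in d14 mock replicate 4 (0.517 FPKM), AT5G26130 in d14 zaxinone replicate 4 (474 FPKM) and ABI1 in kai2 mock replicate 4 (40.0 FPKM). In Col-0, HB1 was low in zaxinone replicate 3 (32.6 FPKM), CML38 high in zaxinone replicate 1 (9.24 FPKM) and AT2G38905 present only in mock replicate 3 (0.0666 FPKM, 2 counts). RABG1 had its only kai2 zaxinone count in replicate 2 (0.0281 FPKM).

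The zaxinone log2 fold change differed between genotypes by the edgeR interaction test for 10 genes. In d14 minus Col-0 the differences were 4.35 for AT4G19970, 2.63 for AT3G55513, 1.505 for AT5G00580, 1.37 for CKX4, 1.085 for AT5G35110, 1.01 for LOG7, 0.96 for PRXCB and -1.07 for MAM1. In d14 minus kai2 they were 4.13 for CYP71A13, 2.80 for AT3G55513, 1.04 for CKX4, 0.80 for AT1G66180 and -0.97 for MAM1. AT3G55513 had opposite signs in d14 and the other genotypes.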

How the results depend on the processing

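The set shrank to 138 genes at an adjusted p under 0.01 in the 3 tables, to 56 with all 3 log2 fold changes 1.5 or more in size and to 27 with 2 or more. In settings chosen after seeing the data, 159 to 171 of the 172 genes kept an edgeR log2 fold change of size 1 in all 3 genotypes when any 1 library was left out, and 4 to 5 of the 5 low oxygen genes did. Leaving out 1 library gave 3 to 8 members that differed between d14 and Col-0, 0 to 0 between kai2 and Col-0, 2 to 5 between d14 and kai2, and 27 to 47, 7 to 22 and 29 to 57 in the mock comparisons of d14 with Col-0, kai2 with Col-0 and kai2 with d14. The count moved by over 1.5 times between d14 and Col-0 without d14 mock 1, 2 or 3, d14 zaxinone 1, Col-0 mock 3 or 4 or Col-0 zaxinone 2, 3 or 4; between d14 and kai2 without d14 mock 1, 2 or 4, d14 zaxinone 1, kai2 mock 2 or kai2 zaxinone 3 or 4; between d14 and Col-0 mock without d14 mock 2; and between kai2 and Col-0 mock without kai2 mock 2 or 3 or Col-0 mock 1 or 4. DESeq2 called 2 members between kai2 and Col-0, and a mean of at least 50 counts left 3 between d14 and kai2. No other setting moved a count by over 1.5 times except the block. With the replicate number as a block, 4 members differed between d14 and Col-0 and 1 between d14 and kai2, in place of 8 and 5. The labels do not say whether the numbers pair the samples. Same-numbered mock and zaxinone libraries correlated at -0.12 to 0.16, and 2 of 12 libraries matched their own number best, which cannot settle it. The cause of these moves was not tested.

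TMM over the listed genes, on the assumption of mostly unaltered genes, shifted the zaxinone log2 fold changes of members by 0.18 in Col-0, -0.91 in d14 and -0.52 in kai2, left 157, 111 and 126 members past 1, and turned no direction. All genes in these fits were listed as changed by zaxinone, in d14 1468 as higher and 868 as lower, so the assumption was not met. The shifts therefore do not measure how far the changes depend on normalization. Under TMM AT3G55513 was at 0.30 in d14. Of the differences and mock differences of named genes, 867 values under alternatives kept their call, 198 fell short of it and none turned. Below about 1 FPKM, where 72 of the 172 genes lay, single reads and single libraries set much of a value.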

Other observations

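On the other strand PUP7 overlaps AT4G18203 by 814 bases and PUP16 overlaps AT1G04743 by 1030 bases, so the counts of both are uncertain. These purine permease genes had deposited log2 fold changes of -1.19, -1.08 and -1.53 and of -1.37, -1.07 and -1.22 in Col-0, d14 and kai2. Of the members annotated with a MYB symbol, MYB7 was at 1.09, 1.42 and 1.24, MYB78 at 1.37, 1.13 and 1.02 and MYB87 at 1.17, 1.16 and 1.35 in the same order. Of 11 pairs of members within 3 genes of each other, 5 shared a direction and 6 did not. NAC6, a senescence regulator also known as ORE1, was higher at 1.17, 1.06 and 1.02 in the authors' deposited tables while the adjacent RABG1 and the nearby peroxidase gene AT5G39580 were lower. AT5G22140 and AT5G22145 overlap by 603 bases on opposite strands, and without strand their reads cannot be told apart. In all, 33 of the 172 genes overlap another annotated gene.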
